A study of Homo sapiens with 2 samples.

Results

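The genes described here are 31 genes of cholesterol and fatty acid synthesis, of 36601 genes counted, in single-cell RNA sequencing of 6 human breast cancer cell lines. They were chosen by symbol: 18 enzymes of sterol synthesis, 5 genes that regulate or transport sterol, and 8 genes of fatty acid synthesis. All 31 symbols were found in the count matrix. No measured value entered the choice, but the genes were proposed with earlier results of these data known.

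The 6 lines were grown without a treatment named in the labels and stained with 1 multiplexing oligo each, and 3 lines at a time were pooled and captured in droplets with a 3′ kit. BT-474 was captured together with MDA-MB-453 and MDA-MB-231, and HCC38 together with Hs578T and MDA-MB-436. Transcripts were counted as unique molecular identifiers (UMIs), and levels are counts per 1000000 gene UMIs (CPM) summed over the cells of a group. There was 1 culture per line, so there is no replicate, no test between lines and no p-value. Intervals given with levels are 95% exact Poisson intervals and those given with ratios are exact conditional binomial intervals, and both cover counting error only.

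Barcodes carry suffixes 1 to 6, and the labels do not say which suffix is which line, so each group is named from marker genes. Every listed marker of a line was highest in 1 group: 10 of 10 for BT-474 (among them ESR1, ERBB2 and TFF1), 5 of 5 for MDA-MB-231, 6 of 6 for MDA-MB-453, 5 of 5 for HCC38, 6 of 6 for Hs578T and 5 of 5 for MDA-MB-436. All marker lists were chosen with earlier results of these data known, so these counts are not an independent check of the names. For MDA-MB-436 the markers IL13RA2 and IL1B came from those earlier results. UCHL1 of the same list had 532 CPM there against 440 in the HCC38-like group, so that name is the least secure. Barcodes with at least 10000 gene UMIs and at most 20% mitochondrial UMIs were kept, 15236 of 17605, or 1953 to 3419 per group and 70.0 to 96.1 M (mega) UMIs per group. The BT-474-like cells had a median of 14.6% mitochondrial UMIs, against 5.85% to 9.85% in the other groups. Between 3 and 10 barcode sequences per group also occurred in another suffix. Markers of immune cells summed to at most 0.472 CPM, of endothelium to at most 1.60 CPM and of fat cells to at most 0.584 CPM in any group, with CD3E and MS4A1 at 0 in all. Fibroblast markers (DCN, LUM, PDGFRA) reached 197 CPM in the Hs578T-like group. Markers of one line were also counted in cells of its capture mates. Whether these were transcripts of the other line or the cells' own was not tested. TFF1 had 1043 CPM in the BT-474-like group and 140 CPM, 13.4% of that, in the MDA-MB-453-like group. TFF3, with 1065 CPM in the BT-474-like group, stood at 3.84% there. In the MDA-MB-231-like group the shares were 2.55% for TFF1 and 2.49% for TFF3. The other such levels looked up, for 7 markers, lay between 0.953% and 3.84% of the level in the marker's own line.

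Cells make cholesterol from acetyl-CoA through mevalonate, farnesyl diphosphate, squalene and lanosterol. The transcription factor SREBP-2 (gene SREBF2) drives this pathway and is held in the endoplasmic reticulum by SCAP and the INSIG proteins when sterol is plentiful. When sterol runs low it is cut free in the Golgi and turns on nearly all enzymes of the pathway together. SREBP-1 (SREBF1) acts in the same way mainly on fatty acid synthesis, and INSIG1 is itself a target, which closes a feedback loop. Breast cancer cells often make their own lipid, and FASN and SCD are among the enzymes studied in them.

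The MDA-MB-231-like group had the lowest level of the sterol pathway and the Hs578T-like group the highest. Summed over the 18 sterol enzymes, the level was 698 CPM (interval 692 to 703) in MDA-MB-231-like cells and 1397 CPM (1389 to 1405) in Hs578T-like cells. The other 4 groups lay close together, at 1154 CPM in BT-474-like, 1193 in MDA-MB-453-like, 1228 in MDA-MB-436-like and 1231 in HCC38-like cells. Of the 18 enzymes, 12 were lowest in the MDA-MB-231-like group, whereas that group was lowest for 11.95% of the 10892 genes that reached 10 CPM in any group. The Hs578T-like group was highest for 9 of the 18, against 15.6% of all those genes. The steps from squalene synthesis on differed more than the mevalonate steps. The 11 later enzymes summed to 363 CPM in MDA-MB-231-like and 888 CPM in Hs578T-like cells, while the 7 mevalonate enzymes summed to 334 and 509 CPM, and to at most 530 CPM, in MDA-MB-453-like cells.

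**Figure D1:**
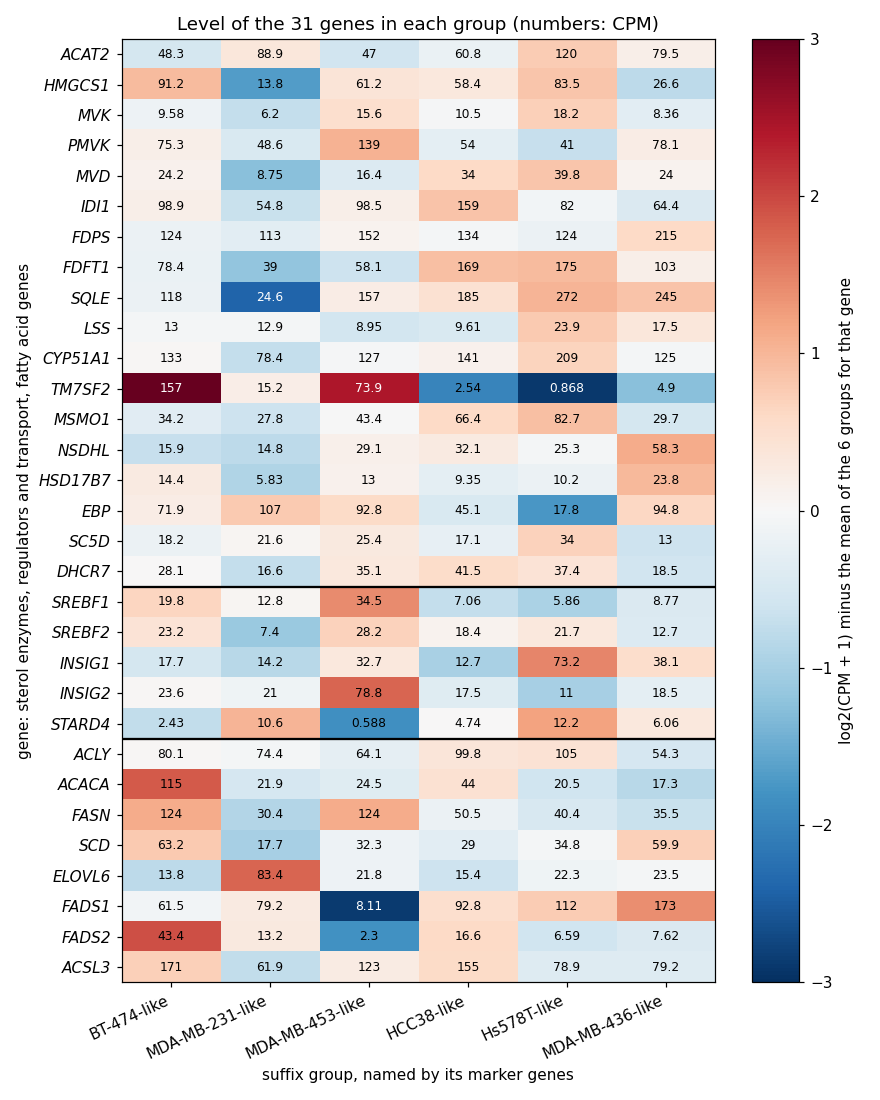
Level of each of the 31 genes (rows) in each of the 6 groups (columns). Numbers are CPM, colour is log2(CPM + 1) minus the mean of the 6 groups for that gene, and black lines part sterol enzymes, regulators and transport, and fatty acid genes. Most sterol enzymes are blue in the MDA-MB-231-like column, while TM7SF2, FADS1 and FADS2 show the strongest contrasts.

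Among the mevalonate enzymes, HMGCS1, which makes HMG-CoA, differed most. HMGCS1 (ENSG00000112972, chr5:43289395-43313512, minus strand, GENCODE v29 on GRCh38) had 91.2 CPM in BT-474-like, 83.5 in Hs578T-like, 61.2 in MDA-MB-453-like, 58.4 in HCC38-like, 26.6 in MDA-MB-436-like and 13.8 CPM in MDA-MB-231-like cells. The highest was 6.59-fold the lowest, and only MDA-MB-453-like and HCC38-like cells, next to each other in this order, had overlapping intervals. PMVK, which adds the second phosphate to mevalonate, followed another order. PMVK (ENSG00000163344, chr1:154924734-154936991, minus strand) had 139 CPM in MDA-MB-453-like, 78.1 in MDA-MB-436-like, 75.3 in BT-474-like, 54.0 in HCC38-like, 48.6 in MDA-MB-231-like and 41.0 CPM in Hs578T-like cells. It was thus lowest in the group whose sterol sum was highest. FDPS, which makes farnesyl diphosphate, varied least in this branch, from 113 CPM in MDA-MB-231-like to 215 CPM in MDA-MB-436-like cells. ACAT2, the thiolase that starts the pathway, ranged 2.56-fold, MVK 2.93-fold, MVD 4.55-fold and IDI1 2.90-fold.

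SQLE, which oxidises squalene and is a rate-limiting step of the later pathway, had the widest range of any sterol enzyme above 20 CPM in all 6 groups. It had 272 CPM in Hs578T-like, 245 in MDA-MB-436-like, 185 in HCC38-like, 157 in MDA-MB-453-like, 118 in BT-474-like and 24.6 CPM in MDA-MB-231-like cells. No neighbours in this order had overlapping intervals, and MDA-MB-231-like cells lay 4.79-fold below the next group. The squalene synthase FDFT1 showed the same low end, with 39.0 CPM in MDA-MB-231-like cells, and reached 175 CPM in Hs578T-like and 169 CPM in HCC38-like cells. CYP51A1, which removes a methyl group from lanosterol, ranged from 78.4 to 209 CPM and MSMO1, which acts next to it on the same sterols, from 27.8 to 82.7 CPM, both lowest in MDA-MB-231-like and highest in Hs578T-like cells. NSDHL and HSD17B7, which act with MSMO1 in removing other methyl groups than CYP51A1 does, were instead highest in MDA-MB-436-like cells, at 58.3 and 23.8 CPM.

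A pair of later enzymes went against the sum. EBP, a sterol isomerase, had 107 CPM in MDA-MB-231-like, 94.8 in MDA-MB-436-like, 92.8 in MDA-MB-453-like, 71.9 in BT-474-like, 45.1 in HCC38-like and 17.8 CPM in Hs578T-like cells. It was the only sterol enzyme that was highest in the MDA-MB-231-like group. TM7SF2, one of the sterol reductases (ENSG00000149809, chr11:65111845-65116384, plus strand), had 157 CPM in BT-474-like, 73.9 in MDA-MB-453-like and 15.2 CPM in MDA-MB-231-like cells. In the other capture it had 4.90 CPM in MDA-MB-436-like, 2.54 in HCC38-like and 0.868 CPM in Hs578T-like cells, where 72 UMIs were counted over the whole group. TM7SF2 overlaps VPS51 on the same strand, and CYP51A1 overlaps 2 further genes on its strand, so reads could be split between them by the counting. LSS, SC5D and DHCR7, the remaining later enzymes, ranged 2.67-fold, 2.62-fold and 2.50-fold.

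Both SREBP genes and both INSIG genes differed between lines, and the INSIG genes did not share an order. INSIG1 had 73.2 CPM in Hs578T-like, 38.1 in MDA-MB-436-like, 32.7 in MDA-MB-453-like, 17.7 in BT-474-like, 14.2 in MDA-MB-231-like and 12.7 CPM in HCC38-like cells. INSIG2, its paralogue, had 78.8 CPM in MDA-MB-453-like, 23.6 in BT-474-like, 21.0 in MDA-MB-231-like, 18.5 in MDA-MB-436-like, 17.51 in HCC38-like and 11.03 CPM in Hs578T-like cells. INSIG1 was thus highest, and INSIG2 lowest, in the Hs578T-like group. SREBF1 had 34.5 CPM in MDA-MB-453-like, 19.8 in BT-474-like, 12.8 in MDA-MB-231-like, 8.77 in MDA-MB-436-like, 7.06 in HCC38-like and 5.86 CPM in Hs578T-like cells. SREBF2 had 28.2 CPM in MDA-MB-453-like, 23.2 in BT-474-like, 21.7 in Hs578T-like, 18.4 in HCC38-like, 12.7 in MDA-MB-436-like and 7.40 CPM in MDA-MB-231-like cells. The group with the lowest sterol enzyme sum therefore also had the lowest SREBF2 level. STARD4, which carries sterol between membranes, ranged from 12.2 CPM in Hs578T-like to 0.588 CPM in MDA-MB-453-like cells.

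The fatty acid genes followed a different order from the sterol enzymes. Their summed level was 672 CPM in BT-474-like, 503 in HCC38-like, 451 in MDA-MB-436-like, 420 in Hs578T-like, 401 in MDA-MB-453-like and 382 CPM in MDA-MB-231-like cells. FASN, the fatty acid synthase, had 124 CPM in both MDA-MB-453-like and BT-474-like cells, with overlapping intervals, and 50.5 in HCC38-like, 40.4 in Hs578T-like, 35.5 in MDA-MB-436-like and 30.4 CPM in MDA-MB-231-like cells. These top groups are the lines in which ERBB2 was highest, at 805 CPM in BT-474-like and 161 CPM in MDA-MB-453-like cells. ACACA, which makes malonyl-CoA for FASN, was high in only one of them, with 115 CPM in BT-474-like, 44.0 in HCC38-like, 24.5 in MDA-MB-453-like, 21.9 in MDA-MB-231-like, 20.5 in Hs578T-like and 17.3 CPM in MDA-MB-436-like cells. SCD, which puts the double bond into stearate, had 63.2 CPM in BT-474-like, 59.9 in MDA-MB-436-like, 34.8 in Hs578T-like, 32.3 in MDA-MB-453-like, 28.99 in HCC38-like and 17.7 CPM in MDA-MB-231-like cells. ACLY, which makes the acetyl-CoA for both pathways, varied least of the 8, from 54.3 to 105 CPM, and ACSL3, which activates fatty acids, ranged from 61.9 to 171 CPM.

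The elongase and the desaturases of polyunsaturated fatty acids stood apart in single groups. ELOVL6, which lengthens palmitate (ENSG00000170522, chr4:110045846-110199199, minus strand), had 83.4 CPM in MDA-MB-231-like cells and 23.5 in MDA-MB-436-like, 22.3 in Hs578T-like, 21.8 in MDA-MB-453-like, 15.4 in HCC38-like and 13.8 CPM in BT-474-like cells. It was 3.55-fold higher in the MDA-MB-231-like group than in the next. FADS1 had 173 CPM in MDA-MB-436-like, 112 in Hs578T-like, 92.8 in HCC38-like, 79.2 in MDA-MB-231-like, 61.5 in BT-474-like and 8.11 CPM in MDA-MB-453-like cells. FADS2 had 43.4 CPM in BT-474-like, 16.6 in HCC38-like, 13.2 in MDA-MB-231-like, 7.62 in MDA-MB-436-like, 6.59 in Hs578T-like and 2.30 CPM in MDA-MB-453-like cells. Both desaturases were thus lowest in the MDA-MB-453-like group. There FADS2 and STARD4 stood at 5.29% and 5.57% of their level in a capture mate and FADS1 at 10.2%. Markers of the capture mates stood in the same group at 13.4% (TFF1), 3.84% (TFF3) and 2.71% (CD74) of their level in their own line. How much of the low levels, or of the TFF1 level, came from transcripts of another line was not tested. FADS1 and FADS2 overlap on opposite strands, FADS2 also overlaps FEN1 on its own strand, and how the counting treated strand is not given in the sources used here. The same limit holds for ACAT2 (with TCP1 and SOD2), MVK (with MMAB) and SREBF1 (with RAI1).

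Each group was then set against the geometric mean of the other 5, with 1 CPM added, and a gene was counted at 2-fold. In the MDA-MB-231-like group 8 of 31 genes were at least 2-fold lower, against 10.6% of the 10892 genes, and 2 were higher (STARD4 and ELOVL6), against 11.2%. The 8 were SQLE (log2 ratio -2.88), HMGCS1 (-2.02), MVD (-1.49), FDFT1 (-1.43), SREBF2 (-1.33), SCD (-1.18), HSD17B7 (-1.08) and FASN (-1.06). The median over the 18 sterol enzymes was -0.82, where the median of all genes was -0.00. In the Hs578T-like group 5 of 31 were higher, against 14% of genes, and 4 lower, against 12%. Those higher were INSIG1 (1.75), STARD4 (1.46), SQLE (1.22), FDFT1 (1.13) and MSMO1 (1.09), and those lower were TM7SF2 (-3.49), EBP (-2.09), INSIG2 (-1.19) and SREBF1 (-1.15). The sterol median there was 0.83, against -0.02 for all genes.

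In the other 4 groups the sterol median lay closer to that of all genes, at -0.03 against -0.28 in BT-474-like, 0.19 against -0.02 in MDA-MB-453-like, 0.06 against 0.16 in HCC38-like and 0.17 against 0.01 in MDA-MB-436-like cells. In the MDA-MB-453-like group 5 of 31 genes were higher, against 13.3%, and 3 lower, against 18.8%. TM7SF2 (2.90), INSIG2 (2.08), SREBF1 (1.70), FASN (1.33) and PMVK (1.25) were the higher ones, and FADS1 (-3.43), STARD4 (-2.21) and FADS2 (-2.17) the lower. In the BT-474-like group 5 were higher, against 10.6%, and 0 lower, against 21.4%. These were TM7SF2 (4.20), FADS2 (2.33), ACACA (2.20), FASN (1.33) and HMGCS1 (1.14). The HCC38-like group had 2 higher (FDFT1 and IDI1), against 16.2%, and 2 lower (TM7SF2 and INSIG1), against 6.75%. The MDA-MB-436-like group had 4 higher, against 14.3%, with FADS1 (1.67) and NSDHL (1.34) first, and 1 lower (TM7SF2), against 13%. Scaling by TMM factors moved the median of all genes by 0.17 in the BT-474-like and by -0.25 in the HCC38-like group, and by less than 0.1 in the others.

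Lines of the same capture share the library preparation, so the 6 pairs within captures were also compared. MDA-MB-231-like against MDA-MB-453-like cells gave 12 of 31 genes at least 2-fold lower, against 17.3% of genes, and 4 higher, against 19.3%. The 12 included SQLE (-2.63), HMGCS1 (-2.07) and PMVK (-1.49) and also 4 of the 5 regulators and transport genes, SREBF1, SREBF2, INSIG1 and INSIG2. BT-474-like against MDA-MB-231-like cells gave 11 higher, against 14.3%, and 2 lower (ELOVL6 and STARD4), against 23.2%. BT-474-like against MDA-MB-453-like cells gave 5 higher, against 10.8%, and 1 lower, against 16.1%. The FADS2 (3.75) and FADS1 (2.78) differences led there. In the other capture, HCC38-like against Hs578T-like cells gave 3 higher, against 18.1%, and 3 lower, against 13%, with INSIG1 (-2.43) the largest. HCC38-like against MDA-MB-436-like cells gave 6 higher, against 20.6%, and 4 lower, against 13.7%. Hs578T-like against MDA-MB-436-like cells gave 4 higher, against 15.2%, and 4 lower, against 14.1%, with EBP (-2.35) the largest.

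Within a line, cells also differed from each other in the sterol pathway. For this every cell was thinned at random to 10000 UMIs, so that depth was equal. The 18 sterol enzymes then summed to a mean of 14.4 UMIs per cell in Hs578T-like cells, with a 5th percentile of 4 and a 95th percentile of 34. In MDA-MB-453-like cells the mean was 11.9 UMIs and the same percentiles were 5 and 21. The variance of the sum was 6.46 times its mean in Hs578T-like, 4.11 in MDA-MB-436-like, 4.08 in HCC38-like, 2.36 in BT-474-like, 2.22 in MDA-MB-453-like and 1.52 times in MDA-MB-231-like cells, where pure counting would give a variance equal to the mean. With the counting part taken out, the coefficient of variation was 61.6% in Hs578T-like and 27.3% in MDA-MB-231-like cells, with the other groups between.

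**Figure D2:**
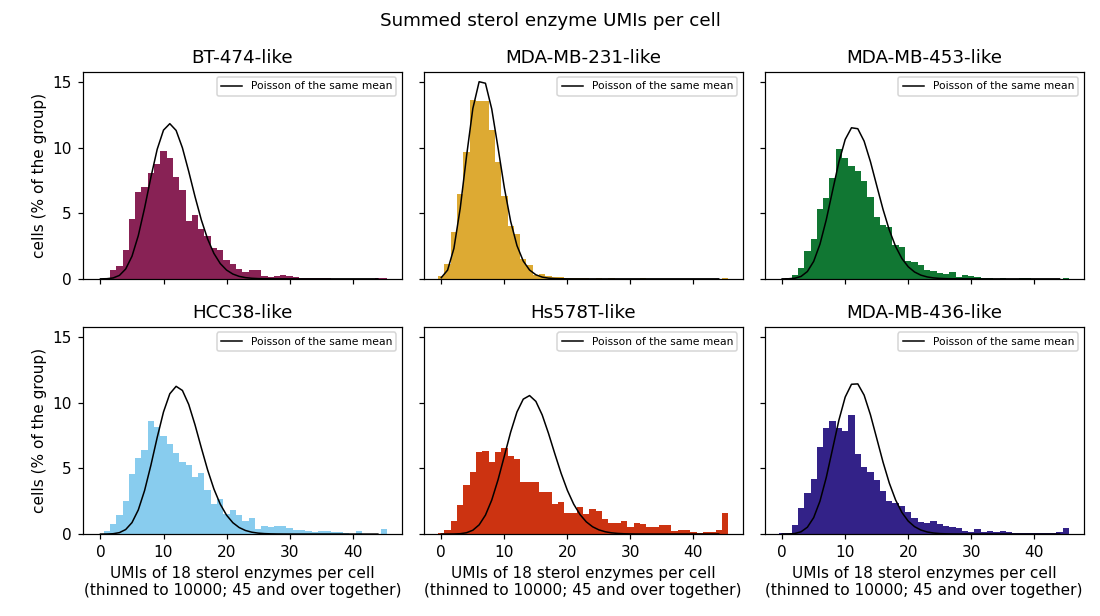
Summed UMIs of the 18 sterol enzymes per cell, after thinning every cell to 10000 UMIs, as the percent of cells of each group (bars), with a Poisson curve of the same mean (line); values of 45 and over are in the last bar. The Hs578T-like cells spread widest, and the MDA-MB-231-like cells, with a mean of 6.95 UMIs, lie closest to the curve.

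The spread was shared between both ends of the pathway. The sum of the 7 mevalonate enzymes and that of the 11 later enzymes were correlated across cells, on ln(1 + summed UMIs). Pearson's correlation was 0.56 in 1953 Hs578T-like, 0.40 in 2468 HCC38-like and 0.33 in 2235 MDA-MB-436-like cells. It was 0.26 in 2251 BT-474-like, 0.23 in 3419 MDA-MB-453-like and 0.09 in 2910 MDA-MB-231-like cells. Cells of a group share a library and a culture, so these are descriptions. Between single genes, taken on ln(1 + UMIs), the values are low, and most cells hold few UMIs of each gene. Among sterol enzymes with at least 0.2 UMIs per thinned cell, 60 of 91 pairs had a correlation of at least 0.1 in Hs578T-like cells, against 0.373% of all pairs of genes at the same floor. In MDA-MB-436-like cells it was 49 of 78 pairs, against 0.314%, and in HCC38-like cells 31 of 78, against 0.605%. In MDA-MB-453-like cells it was 12 of 91, against 0.343%, in BT-474-like cells 12 of 78, against 0.54%, and in MDA-MB-231-like cells 0 of 45, against 0.442%. With cells of at most 10% mitochondrial UMIs only, the BT-474-like count was 29. With a floor of 0.5 UMIs, which leaves fewer genes, the Hs578T-like count was 28. The share of all pairs of genes was not computed in these settings, so a changed count cannot be read as stronger or weaker correlation of the members.

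HMGCS1 and SQLE were the most correlated pair in 4 groups, with 0.44 in Hs578T-like, 0.32 in HCC38-like, 0.22 in MDA-MB-453-like and 0.20 in BT-474-like cells. In Hs578T-like cells the next were HMGCS1 and MSMO1 (0.37), HMGCS1 and INSIG1 (0.36) and SQLE and MSMO1 (0.34). In MDA-MB-453-like cells SQLE and INSIG1 (0.19) and MSMO1 and INSIG1 (0.18) followed. The inhibitor INSIG1 was thus among the closest partners of the enzymes in both lines. Pairs of fatty acid genes had a median correlation of 0.03 in both lines. Pairs of sterol enzymes had a median of 0.15 in Hs578T-like cells but also 0.03 in MDA-MB-453-like cells, against 0.00 for all pairs of genes. The lowest value in Hs578T-like cells was that of HMGCS1 and ELOVL6, at -0.06.

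**Figure D3:**
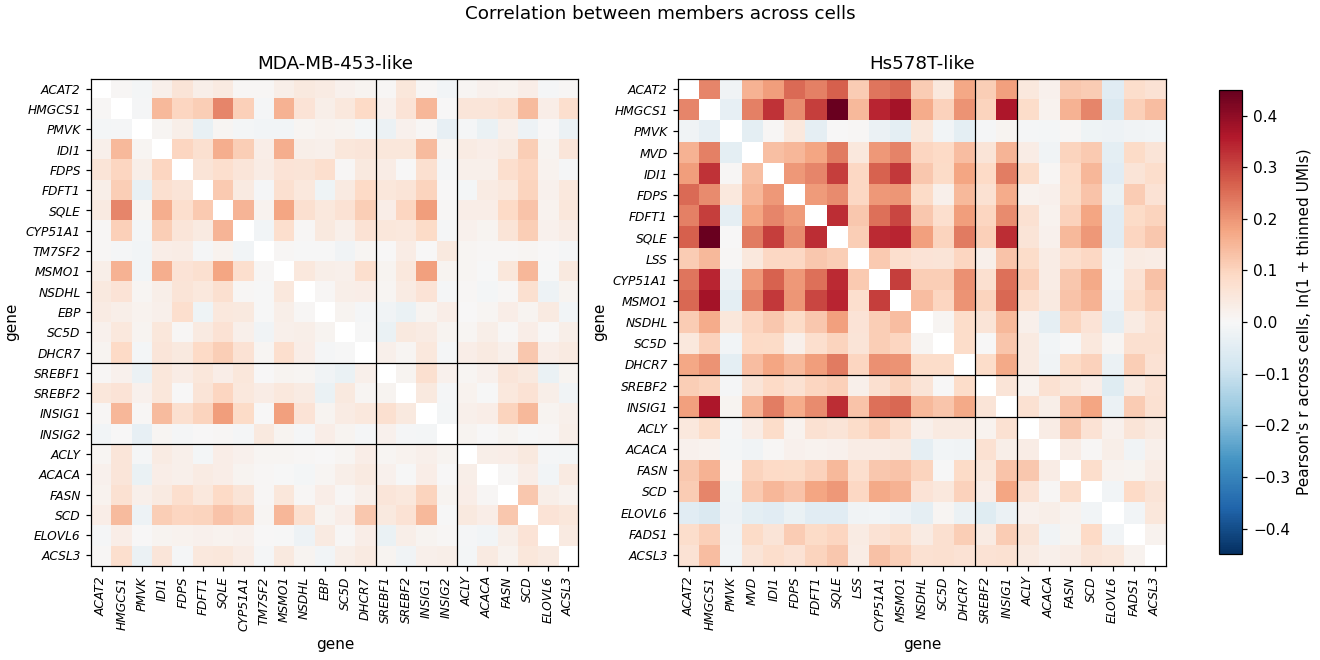
Pearson's correlation between members across MDA-MB-453-like cells (left) and Hs578T-like cells (right), for genes with at least 0.2 UMIs per thinned cell, on 1 colour scale; black lines part sterol enzymes, regulators and fatty acid genes. The sterol block with INSIG1 is darker on the right, while the PMVK row is pale in both and the ELOVL6 row is pale blue on the right.

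To give sizes in levels, the cells of each group were ranked by their summed sterol enzyme UMIs, leaving out the gene being measured, and the top 25% of cells were set against the bottom 25%. Genes with at least 20 CPM in the group were counted at 1.5-fold. In Hs578T-like cells 18 of the 23 members at that level were higher in the top 25%, against 1.51% of all genes, and 1 was lower, against 1%. In MDA-MB-453-like cells 10 of 24 were higher, against 1.16%, and 0 lower, against 0.0672%. The 8 members under that level in Hs578T-like cells were MVK, TM7SF2, HSD17B7, EBP, SREBF1, INSIG2, STARD4 and FADS2, and the 7 in MDA-MB-453-like cells were MVK, MVD, LSS, HSD17B7, STARD4, FADS1 and FADS2. In MDA-MB-436-like cells it was 15 of 20 higher, against 0.974%, in HCC38-like cells 13 of 19, against 1.18%, and in BT-474-like cells 12 of 22, against 1.07%. Among BT-474-like cells with at most 10% mitochondrial UMIs it was again 12 of 22, but against 10.3% of genes. In the MDA-MB-436-like, HCC38-like and BT-474-like groups 0 members were lower, against 0.168%, 0.747% and 0.0551% of genes. In MDA-MB-231-like cells 0 of 17 were higher, against 0.0504%, and 0 lower, against 0.0336%, and the ratios of the 17 ran from 0.852 to 1.47. There the rank rested on a mean of 6.95 UMIs per cell, against 11.5 to 14.4 in the other groups, and what that does to the ratios was not tested. With the top and bottom 50% of cells instead, the MDA-MB-453-like count was 6, against 0.252% of genes, and the BT-474-like count 4, against 0.551%.

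HMGCS1 had the largest ratio of the sterol enzymes counted in 5 groups. In Hs578T-like cells it went from 27.3 CPM in the bottom 25% to 222 CPM in the top 25%, a ratio of 8.14 (interval 6.80 to 9.82). In MDA-MB-453-like cells it went from 42.2 to 105 CPM, a ratio of 2.48 (2.19 to 2.81). The ratio was 5.25 in MDA-MB-436-like, 4.28 in HCC38-like and 2.71 in BT-474-like cells, and 1.81 in MDA-MB-231-like cells, where HMGCS1 was under 20 CPM. MSMO1 came next in Hs578T-like cells, from 31.1 to 183 CPM, a ratio of 5.88, followed by DHCR7 (4.40), MVD (4.37), IDI1 (4.04) and SQLE (3.87). In MDA-MB-453-like cells MSMO1 had a ratio of 2.37, IDI1 of 2.14, SQLE of 2.09 and DHCR7 of 1.95. The ratio of ACAT2 differed widely between these lines, with 3.27 (2.88 to 3.72) in Hs578T-like and 1.23 (1.07 to 1.42) in MDA-MB-453-like cells.

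PMVK had the lowest ratio of the sterol enzymes counted in 5 groups. It had 41.0 CPM in the bottom and 40.6 CPM in the top 25% of Hs578T-like cells, a ratio of 0.990 (0.809 to 1.21), and 142.5 and 142.7 CPM in MDA-MB-453-like cells, a ratio of 1.00 (0.924 to 1.09). Its ratio lay between 0.844 (0.735 to 0.968), in MDA-MB-436-like cells, and 1.13 in the other 4 groups, and the intervals leave out a ratio of 1.5 in all 6. TM7SF2 was also flat where it was well expressed, with 1.13 (1.03 to 1.24) in BT-474-like and 1.06 (0.953 to 1.19) in MDA-MB-453-like cells. EBP had 1.18 in MDA-MB-453-like and 1.00 in HCC38-like cells, but 1.76 in BT-474-like, 1.81 in MDA-MB-436-like and, under 20 CPM, 2.39 in Hs578T-like cells.

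**Figure D4:**
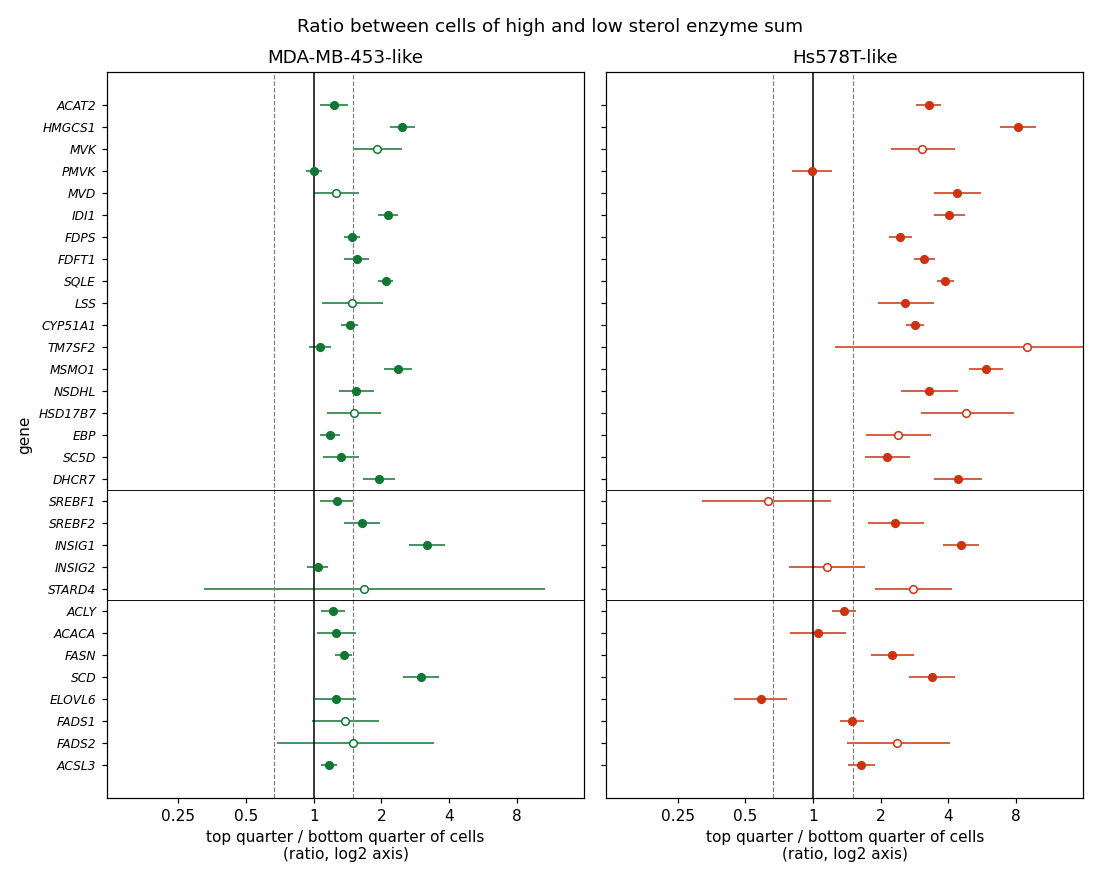
Ratio of the level in the top 25% to that in the bottom 25% of cells ranked by sterol enzyme sum, on a log2 axis, for the 31 genes in MDA-MB-453-like and Hs578T-like cells. Bars are 95% counting intervals, open points are genes under 20 CPM, dashed lines mark 1.5-fold either way, and the bar of TM7SF2 on the right runs off the axis. PMVK sits at 1 in both panels, HMGCS1 is farthest right among the filled points on the right, and ELOVL6 is the only filled point left of the dashed line.

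In the groups where each reached 20 CPM, INSIG1 moved with the enzymes and INSIG2 did not. INSIG1 was under 20 CPM in BT-474-like, HCC38-like and MDA-MB-231-like cells, and INSIG2 in HCC38-like, Hs578T-like and MDA-MB-436-like cells. The INSIG1 ratio in MDA-MB-436-like cells was 3.15. INSIG1 went from 30.3 to 138 CPM in Hs578T-like cells, a ratio of 4.55 (3.81 to 5.48), and from 17.8 to 56.6 CPM in MDA-MB-453-like cells, a ratio of 3.18 (2.64 to 3.84), the largest of any member there. INSIG2 had 79.3 and 82.7 CPM in MDA-MB-453-like cells, where it was most abundant, a ratio of 1.04 (0.937 to 1.16). Its ratio in the other groups lay between 0.852 and 1.21. SREBF2 was higher in the top 25%, with 2.33 (1.75 to 3.13) in Hs578T-like and 1.63 (1.36 to 1.97) in MDA-MB-453-like cells. SREBF1 had 1.27 (1.07 to 1.499) in MDA-MB-453-like cells and, at 27 and 17 UMIs, 0.630 (0.322 to 1.198) in Hs578T-like cells. STARD4 was under 20 CPM in all groups and had 2.78 (1.90 to 4.17) in Hs578T-like cells.

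Of the fatty acid genes, SCD moved most with the sterol enzymes. It went from 19.5 to 66.0 CPM in Hs578T-like cells, a ratio of 3.39 (2.69 to 4.31), and from 18.6 to 56.0 CPM in MDA-MB-453-like cells, a ratio of 3.01 (2.51 to 3.62). It was counted as higher in the 5 groups where it reached 20 CPM, and had 2.09 in MDA-MB-231-like cells. FASN went from 25.8 to 58.2 CPM in Hs578T-like cells, a ratio of 2.25 (1.82 to 2.80), while in MDA-MB-453-like cells, with 102 and 139 CPM, the ratio was 1.36 (1.25 to 1.49). ACLY and ACACA, the steps before FASN, stayed under 1.5-fold in all 6 groups. In Hs578T-like cells ACLY had 1.37 and ACACA 1.05 (0.790 to 1.40). ELOVL6 was the 1 member that was lower, from 31.1 CPM in the bottom to 18.2 CPM in the top 25% of Hs578T-like cells, a ratio of 0.586 (0.446 to 0.766). In the other groups its ratio lay between 1.02 and 1.34.

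Along the rank the levels of HMGCS1, INSIG1 and SCD were highest at the upper end in both lines. In 10 bins of Hs578T-like cells by rank (195 or 196 cells each), HMGCS1 had 25.5 CPM in bin 1, 62.6 in bin 6 and 324 CPM in bin 10. INSIG1 had 20.4, 58.5 and 193 CPM in the same bins, and SCD 12.2, 34.9 and 89.7 CPM. In the bins of MDA-MB-453-like cells (341 or 342 cells each), HMGCS1 had 38.9, 54.7 and 141 CPM, INSIG1 17.8, 28.4 and 69.8 CPM, and SCD 14.3, 25.1 and 71.0 CPM. HMGCS1 stood at 41.8 CPM in bin 5 of these cells, and INSIG1 at 18.4 CPM in bin 4, both close to bin 1. HMGCS1 had 53.5 CPM in bin 3, however, and SCD had risen to 26.9 CPM (21.7 to 33.0) by bin 5, from 14.3 CPM (10.6 to 18.9) in bin 1. The largest step was the last in each of these 6 series.

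**Figure D5:**
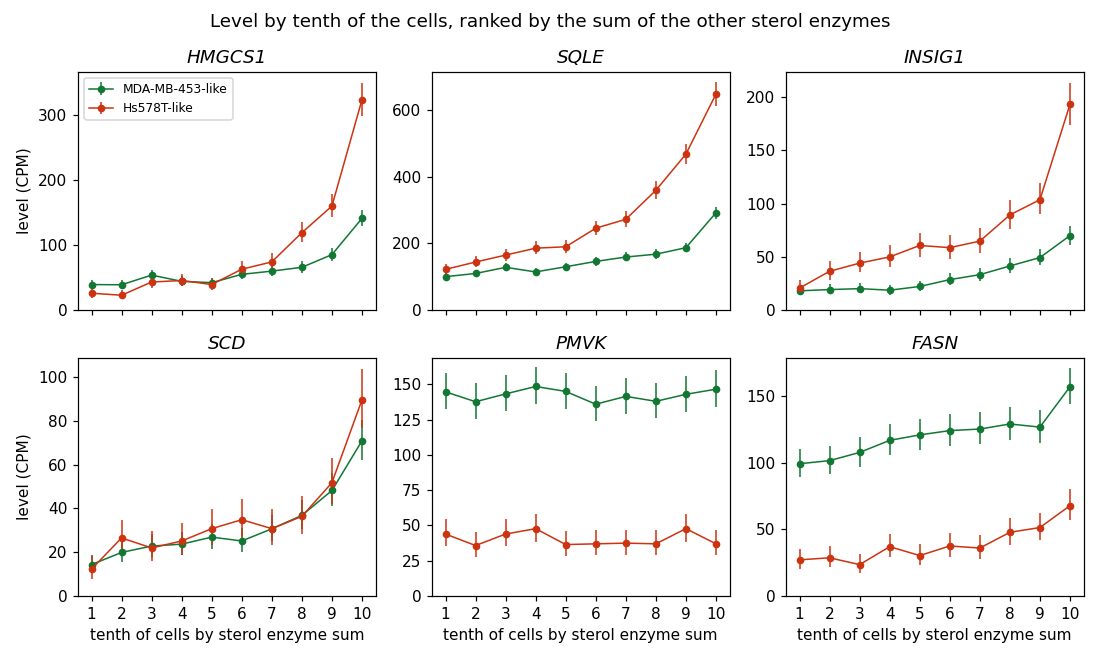
Level (CPM) of 6 genes in 10 equal bins of the MDA-MB-453-like and Hs578T-like cells, ranked by the sum of the sterol enzymes other than the gene shown; bars are 95% Poisson intervals. HMGCS1, SQLE, INSIG1 and SCD climb toward the bin with the highest sum, PMVK stays level in both lines, and FASN climbs less.

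Cells of the top and bottom 25% also differed in cell cycle genes, and not in the same direction in each line. The 15 G2/M genes summed to 1867 CPM in the bottom and 3272 CPM in the top 25% of MDA-MB-453-like cells, but to 2619 and 1951 CPM in Hs578T-like cells. The 12 G1/S genes summed to 1185 and 1311 CPM and to 1036 and 1269 CPM. Among cells with a G2/M sum at or below the median, 11 of 23 members were higher in MDA-MB-453-like cells, against 0.596% of genes, and 18 of 23 in Hs578T-like cells, against 2.98%. Median depth was 19414 and 20817 UMIs in the bottom and top 25% of MDA-MB-453-like cells and 37922 and 36112 UMIs in those of Hs578T-like cells. Median mitochondrial shares were 10.3% and 9.54%, and 5.80% and 6.19%. The part of depth and mitochondrial share in the ratios was not tested beyond the thinning and the stricter mitochondrial limit. The markers of capture mates summed to 513 and 475 CPM in the bottom and top 25% of MDA-MB-453-like and to 65.2 and 70.7 CPM in those of Hs578T-like cells. Without the cells that held transcripts of a second line, the counts were 9 of 24, against 1.11% of genes, and 18 of 23, against 1.54%.

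Some genes outside the 31 were also higher in the top 25%, and those named here were picked by that same ratio. Among 3667 other genes with at least 20 CPM in all 6 groups, those with the largest mean log2 ratio of top to bottom 25% over the 6 groups included MMAB, ERG28, TMEM97, FAM111B, SLC25A1, IDH1 and MCM10. Their means ran from 0.83 for MMAB to 0.39 for MCM10, against a median of 0.01 over the 3667. MMAB, an enzyme of the vitamin B12 pathway that overlaps MVK on the other strand, reached a ratio of 2.61 in both Hs578T-like and MDA-MB-436-like cells, and MVK is part of the sum that ranked them. ERG28, a scaffold of the sterol demethylation enzymes, had 3.87 in Hs578T-like and 1.26 in MDA-MB-453-like cells. SLC25A1, which exports citrate from mitochondria, had 1.71 and 1.22 in these lines. FAM111B and MCM10, a DNA replication factor, were largest in BT-474-like cells, at 1.81 and 1.96. Not all of these genes moved in every group. TMEM97 and MCM10 each reached 1.5-fold in 1 group only, and IDH1 had 0.968 in MDA-MB-453-like cells.

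Other genes of lipid metabolism, from pathway lists chosen with earlier results of these data known, were counted in the same way. TMEM97 and MMAB are on these lists and were also among the genes picked above by this ratio. Of 12 genes of SREBP processing and sterol handling, 8 reached 20 CPM in Hs578T-like cells. Of those, 4 were at least 1.5-fold higher, against 1.51% of all genes, among them TMEM97 (2.82), MMAB (2.61) and LPIN1 (1.84). In MDA-MB-453-like cells 0 of 6 were, against 1.16%. The SREBP protease MBTPS1 had 1.02 and 1.03 in these lines. Of the isoprenoid branch, which uses farnesyl diphosphate for other products, 0 of 4 genes were higher in either line. Of 18 other fatty acid genes, 0 of 11 were in Hs578T-like and 0 of 6 in MDA-MB-453-like cells. With 1.51% and 1.16% of all genes higher in these lines, lists this short would mostly give 0. Of the efflux and liver X receptor genes only NR1H2 reached 20 CPM in these lines, with 0.994 in Hs578T-like and 0.940 in MDA-MB-453-like cells. In the other groups, the SREBP processing and sterol handling list had 3 of 8 higher in MDA-MB-436-like cells, against 0.974%, and 2 of 8 in HCC38-like cells, against 1.18%. It had 0 of 6 in BT-474-like and 0 of 8 in MDA-MB-231-like cells, against 1.07% and 0.0504%. In levels between groups, the MDA-MB-231-like group had 1 higher and 1 lower of 11 measured genes of SREBP processing and sterol handling, shares near the 11.2% and 10.6% of all genes.

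Because the members moved together, the bases before their starts were searched for the letters of 2 elements known from this pathway. These were TCACNCCAC, the core of a sterol regulatory element, which SREBPs bind, and CCAAT, which NF-Y binds beside SREBPs, both on either strand. Promoter windows around the gene starts, from RefSeq (GRCh38.p14), were matched for 27 of the 31 genes. At least 1 window of 21 of the 27 held CCAAT, against 39.7% of all genes in the table and 34.6% of its 35116 windows. CCAAT was in 13 of the 14 matched members that were higher in the top 25% of Hs578T-like cells, all but CYP51A1, in 2 of the 5 matched members that were not (ACLY and ACACA), and in 6 of the 8 under 20 CPM there, TM7SF2 among them. TCACNCCAC was in 1.13% of windows and in 1 member, SREBF2. A match is a description of letters and does not show that a factor binds. Sequences are given for 4 members that moved with the sterol enzymes, for INSIG2 and for ELOVL6. INSIG2 did not move with them where it reached 20 CPM, and ELOVL6 was lower in Hs578T-like cells. The stretches below are those free of annotated exons. They read 5′ to 3′ on the gene's strand, with CCAAT or its reverse complement in capitals.
HMGCS1 (chr5:43313513-43313662, minus strand): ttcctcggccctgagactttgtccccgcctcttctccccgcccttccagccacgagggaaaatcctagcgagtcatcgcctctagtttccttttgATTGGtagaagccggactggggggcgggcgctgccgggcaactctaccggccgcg
MSMO1 (chr4:165327419-165327622, plus strand): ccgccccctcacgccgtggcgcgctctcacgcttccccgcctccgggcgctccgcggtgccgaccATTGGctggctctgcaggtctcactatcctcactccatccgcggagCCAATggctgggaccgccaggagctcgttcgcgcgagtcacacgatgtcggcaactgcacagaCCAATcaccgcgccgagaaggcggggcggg
INSIG1 (chr7:155297628-155297775, plus strand): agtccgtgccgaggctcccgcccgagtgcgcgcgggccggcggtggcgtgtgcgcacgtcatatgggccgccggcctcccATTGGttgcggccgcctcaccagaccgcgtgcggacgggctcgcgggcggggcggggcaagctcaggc
SCD (chr10:100346983-100347123, plus strand): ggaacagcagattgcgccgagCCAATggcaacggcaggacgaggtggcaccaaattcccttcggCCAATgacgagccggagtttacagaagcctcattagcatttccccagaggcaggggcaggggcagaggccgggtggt
INSIG2 (chr2:118088221-118088451, plus strand): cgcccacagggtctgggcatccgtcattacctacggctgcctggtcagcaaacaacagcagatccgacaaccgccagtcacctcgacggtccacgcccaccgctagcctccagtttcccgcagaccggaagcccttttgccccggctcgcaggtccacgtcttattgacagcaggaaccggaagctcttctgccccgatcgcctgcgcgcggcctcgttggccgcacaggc
ELOVL6 (chr4:110198677-110198841, minus strand): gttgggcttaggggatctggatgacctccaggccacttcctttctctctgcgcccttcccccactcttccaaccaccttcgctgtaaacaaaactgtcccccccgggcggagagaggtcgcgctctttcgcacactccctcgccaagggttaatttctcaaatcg
The INSIG1 stretch holds 1 CCAAT and that of its paralogue INSIG2 holds 0, as does that of ELOVL6. The MSMO1 stretch holds 3, the SCD stretch 2 and the HMGCS1 stretch 1. For SREBF2 only the 30 bases around its match are shown, with TCACNCCAC in capitals.
SREBF2 (chr22:41832962-41832991, plus strand): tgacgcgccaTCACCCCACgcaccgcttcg

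Single members also varied more between cells than most genes of these lines. The squared coefficient of variation beyond counting noise was above that of the median gene, a mark that 50% of genes pass, for 20 of 23 members in Hs578T-like and 19 of 24 in MDA-MB-453-like cells. HMGCS1 stood at 1.79 in Hs578T-like cells, above 99.1% of genes, and at 0.724 in MDA-MB-453-like cells, above 96.8%. INSIG1 stood at 0.762 and 1.13, above 95.9% and 98.3%. PMVK stood at 0.171 and 0.0359, above 59.0% and 17.5%, and ACACA in Hs578T-like cells at 0.0400, above 11.4%. SCD varied most of the fatty acid genes counted, at 0.582 in Hs578T-like and 1.48 in MDA-MB-453-like cells.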

How the data were processed

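The deposited matrix holds raw UMI counts of 36601 genes and 12 multiplexing oligos in 17605 barcodes. It was made with Cell Ranger 6.1.2, per the file headers, on GRCh38 (hg38), per the submitters' processing notes. How barcodes were called as cells and assigned to suffixes is not given in the sources used here. The genes described and all lists were chosen with earlier results of these data known, and the genes named are those 31 genes, the 10 most alike by mean log2 ratio of the top to the bottom 25% of cells, and the lists of related pathways. Some genes that this rule names are not reported here.

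Counts were summed per suffix group over barcodes with at least 10000 UMIs and at most 20% mitochondrial UMIs and scaled to CPM. Ratios between groups used 1 CPM added and genes with at least 10 CPM in a group. Cells were thinned to 10000 UMIs for correlations (Pearson on ln(1 + UMIs)), the top and bottom 25%, the 10 bins and excess variation. PCR, ambient RNA and capture effects lie outside the 95% counting intervals. Depth was 70.0 to 96.1 M (mega) UMIs per group, with medians of 20393 to 38404 UMIs per cell. Scrublet (scanpy 1.11.5, per capture, expected rate 0.06) marked 265 barcodes (1.74%) as doublets, which were kept, and left out as an alternative. Mixed cells, 398 barcodes in which the 50 genes most specific to a capture mate reached 25% of that line's median, were left out in an alternative chosen after seeing the data. Other alternatives were barcode limits, TMM factors (edgeR 4.0.16, R 4.3.3), the value added, floors, seeds, the top and bottom 50% and other ranks. The calculations were tested on simulated data and run in Python 3.11.15 with numpy 2.4.6, scipy 1.17.1, pandas 2.3.3 and matplotlib 3.10.9. Promoter sequences came from RefSeq and gene positions from GENCODE v29.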

Additional observations from a re-analysis of the deposited data

How the results depend on the processing

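The sterol enzymes lowest in the MDA-MB-231-like group numbered 12 in all 7 settings tried. The TMM factors were not among these settings. They rescale the groups and so can change which is lowest. The factors were 0.975 for the MDA-MB-231-like, 1.16 for the HCC38-like and 1.04 for the MDA-MB-436-like group. Levels divided by them put FDPS lowest in HCC38-like and MSMO1 lowest in MDA-MB-436-like cells, by small margins. The 12 thus does not hold under these factors, and the count with them was not computed. Over the 6 comparisons with the other groups, each of 31 members, 23 member values were at least 2-fold higher and 18 lower. In the single comparisons 10.6% to 16.2% of all genes were higher and 6.75% to 21.4% lower, so over all groups the members were not called more often than other genes. The alternatives gave 18 to 26 and 13 to 22, and the shares of all genes were not computed for them. No counted value changed direction under any alternative.

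The counts of correlated sterol pairs moved most. The share of all pairs of genes was not computed in the alternatives, so these counts have no background beside them. In BT-474-like cells the 12 pairs became 29 with at most 10% mitochondrial UMIs, 55 without thinning, 7 by Spearman and 6 with a floor of 0.5 UMIs. Without thinning, the pairs numbered 7 in MDA-MB-231-like, 28 in MDA-MB-453-like and 54 in HCC38-like cells. With a floor of 0.5 UMIs, which leaves fewer genes, they numbered 20 in HCC38-like, 28 in Hs578T-like and 21 in MDA-MB-436-like cells. Among cells of low G2/M sum, 1 pair was counted in MDA-MB-231-like cells in place of 0.

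For cells of high against low sterol sum, the top and bottom 50% gave 4 members in BT-474-like and 6 in MDA-MB-453-like cells. In MDA-MB-231-like cells, 0 members became 4 among cells of low G2/M sum, 1 with z scores, 2 without thinning and 4 with a floor of 5 CPM. That floor, which lets in more members, gave 21 in HCC38-like cells. With at most 10% mitochondrial UMIs the BT-474-like count stayed at 12 while the share of all genes called went from 1.07% to 10.3%. Apart from the changed floors, the cause was not tested.

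No paired analysis was possible because there is 1 culture per line and no replicate numbers are shared. Precision is limited by counting for members under 20 CPM and by the single culture for every difference between lines.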

Other observations

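Genes outside lipid synthesis also differed between the top and bottom 25% of cells ranked by sterol enzyme sum. The ones named here were chosen after their values were seen, from the 12 largest ratios each way. In MDA-MB-453-like cells the mitotic genes KIF14 (3.29), KIF20A (2.72) and NEK2 (2.38) led among those higher, and S100P (0.188) and GDF15 (0.386) among those lower. In Hs578T-like cells OLFML3 (2.45), SFRP2 (2.39) and FOS (2.21) were higher. SERPINB2 (0.214), the pentraxin PTX3 (0.399) and the neurofilament gene NEFL (0.454) were lower there.

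In HCC38-like cells FGFBP1 (3.02) and AKR1C2 (2.72) were higher, and the chemokine CCL5 (0.266) and the interferon-induced IFIT3 (0.304) lower. In BT-474-like cells the mammaglobin gene SCGB2A2 had 3.36 and the receptor gene NPY1R 0.528. In MDA-MB-436-like cells CD24 had 2.53, BST2 2.20 and the collagenase gene MMP1 0.470. Each value is a ratio of levels in 1 culture with no replicate.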
